A study of Homo sapiens with 8 samples.

Results

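The RUNX transcription factors and their partners were followed through 6 genes, taken by symbol from the 63677 genes in the deposited tables: RUNX1, RUNX2, RUNX3, CBFB, CBFA2T2 and CBFA2T3. Each symbol had 1 gene identifier, and all 6 genes passed the filter on low counts in every comparison. RNA was sequenced from DND-41 and MOLT-4, established human lines of T-cell acute lymphoblastic leukaemia. The groups were DND-41 cells with 100 nM ACBI-1 for 8 h, DND-41 cells with DMSO, MOLT-4 cells with 100 nM ACBI-1 for 8 h, and MOLT-4 cells with DMSO, each with 2 libraries. ACBI-1 is a small molecule that causes degradation of the chromatin remodelling ATPases SMARCA2 and SMARCA4 and of PBRM1, all subunits of SWI/SNF complexes. It acts on proteins, so transcript counts hold no direct check of the treatment. Each line is a single established leukaemia line, and the labels do not say that replicates were separate cultures, so the p-values cover only how these libraries scatter, which may be technical error alone. In bulk RNA, fewer cells with a transcript and less of it per cell cannot be told apart.

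RUNX1, RUNX2 and RUNX3 bind DNA through a shared Runt domain and either activate or repress a gene, depending on what they recruit. CBFB does not touch DNA itself. It pairs with the Runt domain of any of the 3 RUNX proteins and strengthens their binding. CBFA2T2 and CBFA2T3 belong to the ETO family of corepressors, which bring histone deacetylases to E-protein and TAL1 complexes; their names recall the leukaemia fusions in which a RUNX1 Runt domain is joined to a family member. RUNX1 is needed in T-cell development, RUNX3 silences Cd4 in cytotoxic T cells of the mouse, and RUNX2 is best known as the master factor of bone-forming cells.

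Library totals ran from 19860759 to 20239888 counts, so that 3 counts equalled about 0.15 CPM, the count of a gene scaled to a library of fixed size. All 10 T-lineage markers were at 1 CPM or more in MOLT-4 cells of either treatment, as were 8 of 10 in DND-41 cells with ACBI-1 and 9 of 10 in DND-41 cells with DMSO. No myeloid or erythroid marker reached 1 CPM in any group. Of the B-lineage markers, MS4A1, CD22 and PAX5 were below 1 CPM in every group, while CD79A averaged 957 CPM in DND-41 cells with ACBI-1 and 1580 CPM in DND-41 cells with DMSO. Among the 6 stromal or epithelial markers, COL1A1 set both MOLT-4 replicate 2 libraries apart, with 0 and 207 counts in MOLT-4 ACBI-1 replicates 1 and 2, and 42 and 1115 counts in MOLT-4 DMSO replicates 1 and 2. The summed level of the stromal or epithelial list ran from 0.794 to 14.9 CPM in MOLT-4 cells with ACBI-1, from 3.99 to 70.0 CPM in MOLT-4 cells with DMSO, and never above 0.19 CPM in DND-41 cells. The part of these transcripts in the MOLT-4 results was not tested, and the members' values without both replicate 2 libraries stand beside those results.

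Promoter sequences show where the family's own recognition site lies in its genes. The sites searched were TGTGGT and TGCGGT, the usual RUNX recognition letters, on either strand of RefSeq windows of 300 bases on build GRCh38.p14. The table held windows for RUNX1, RUNX2, RUNX3, CBFA2T2 and CBFA2T3, and none for CBFB. Each window ran from 250 bases before a transcription start to 50 after it. Of 35116 windows in the table, 19.6% held at least 1 match and 2.3% held at least 2. The upstream start of RUNX2 (chr6:45328080-45328379, plus strand) held 5 matches, a number reached by 0.011% of windows, and the upstream start of RUNX3 (chr1:24964961-24965260, minus strand) held 2. These 2 windows are printed 5′ to 3′ in the direction of transcription, with the matched letters in capitals (ACCACA is TGTGGT read on the other strand).
RUNX2 upstream start: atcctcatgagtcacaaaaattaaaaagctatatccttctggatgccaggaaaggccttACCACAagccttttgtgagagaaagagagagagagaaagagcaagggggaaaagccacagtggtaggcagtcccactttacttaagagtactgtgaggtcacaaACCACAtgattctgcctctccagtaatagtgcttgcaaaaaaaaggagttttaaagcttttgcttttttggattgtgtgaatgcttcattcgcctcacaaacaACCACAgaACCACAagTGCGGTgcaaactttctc
RUNX3 upstream start: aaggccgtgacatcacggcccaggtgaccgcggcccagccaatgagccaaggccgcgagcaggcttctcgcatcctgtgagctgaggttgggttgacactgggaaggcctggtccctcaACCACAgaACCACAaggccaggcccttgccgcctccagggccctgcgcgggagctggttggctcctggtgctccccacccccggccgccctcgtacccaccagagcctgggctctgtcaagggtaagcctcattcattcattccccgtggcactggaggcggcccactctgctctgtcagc
In RUNX2 the matches began 191 and 87 bases before the start and 17, 25 and 33 bases after it. In RUNX3 they began 131 and 123 bases before it. The longest run shared by these windows was 18 bases and took in the tandem pair of matches in each gene. No match was present in the window of the second RUNX2 start (chr6:45422025-45422324) or of the second RUNX3 start (chr1:24930227-24930526). None was present in the only windows held for RUNX1 (chr21:34888650-34888949, minus strand), CBFA2T2 and CBFA2T3. Other starts of RUNX1, CBFA2T2 and CBFA2T3 were not searched, so whether RUNX1 has such matches at another start is not shown. A match is a description of the letters, and gene counts do not separate the starts of a gene. In the reference annotation of another build, exons of CBFA2T3 overlap the antisense gene RP11-830F9.5, which had 13 to 31 counts per library, and SUPT3H (108 to 320 counts) lies opposite RUNX2 without shared exons. The libraries were strand-specific, but the strand setting of the counting is not given in the sources used here.

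Among the 6 genes in DMSO-treated cells, the 3 RUNX genes differed most in level between the lines, while CBFB stood at nearly the same level. Of all genes tested, 7.79% differed more than RUNX3, 25.6% more than RUNX1 and 43.3% more than RUNX2. RUNX3 was 20.6-fold higher in DND-41 cells with DMSO than in MOLT-4 cells with DMSO, RUNX2 was moderately higher, and RUNX1 was 2.1-fold lower. Of the 6 genes, 4 passed the test at an adjusted p of 0.05 (2 higher and 2 lower in DND-41), against a background of 63.8% of the 15498 genes tested. The tests here and below are edgeR's quasi-likelihood F tests with Benjamini-Hochberg adjustment over all genes tested, and fold changes are on the log2 scale with the fit's SE.

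RUNX3 had 88.3 and 87.5 CPM in the DND-41 DMSO libraries, against 4.25 and 4.27 CPM in the MOLT-4 DMSO libraries. The DND-41 libraries were far above both MOLT-4 libraries, a difference of 4.36 ± 0.0838 (adjusted p = 1.5e-18). RUNX2 had 29.3 and 31.7 CPM in the DND-41 DMSO libraries, against 20.7 CPM in each MOLT-4 DMSO library. The groups did not overlap (0.56 ± 0.101, adjusted p = 8.22e-05). RUNX1 had 337 and 342 CPM in the DND-41 DMSO libraries and 741 and 686 CPM in the MOLT-4 DMSO libraries, so that the lower MOLT-4 library still exceeded both DND-41 libraries (-1.07 ± 0.0684, adjusted p = 8.08e-11).

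The partner genes were closer. CBFB averaged 77.0 ± 1.85 CPM in DND-41 cells with DMSO and 76.0 ± 1.87 CPM in MOLT-4 cells with DMSO (SD, n = 2 each), a difference of 0.02 ± 0.0565 (adjusted p = 0.779). CBFA2T3 had 81.0 and 73.9 CPM in the DND-41 DMSO libraries and 82.5 and 82.1 CPM in the MOLT-4 DMSO libraries (-0.09 ± 0.0615, adjusted p = 0.228). CBFA2T2 had 58.9 and 63.2 CPM in the DND-41 DMSO libraries and 73.4 and 67.0 CPM in the MOLT-4 DMSO libraries (-0.20 ± 0.0627, adjusted p = 0.00911). That call of CBFA2T2 ended when counts were scaled by library size alone (-0.10, adjusted p = 0.265) and when DMSO replicate 1 of either line was left out (-0.15, adjusted p = 0.133 without the DND-41 library and -0.13, adjusted p = 0.143 without the MOLT-4 library).

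Levels of different genes were set side by side per kilobase of exon, as CPM per kb. With DMSO, the order in DND-41 cells was RUNX1 (21.8 CPM per kb), RUNX3 (19.4), CBFB (18.7), CBFA2T3 (13), CBFA2T2 (6.45) and RUNX2 (3.72). In MOLT-4 cells with DMSO it was RUNX1 (45.8 CPM per kb), CBFB (18.4), CBFA2T3 (13.8), CBFA2T2 (7.42), RUNX2 (2.53) and RUNX3 (0.942). With ACBI-1, the order in DND-41 cells was RUNX1 (20.3 CPM per kb), RUNX3 (14.4), CBFB (10.5), CBFA2T3 (5.88), CBFA2T2 (5.47) and RUNX2 (3.49). In MOLT-4 cells with ACBI-1, CBFA2T3 (18.2 CPM per kb) stood second after RUNX1 (43.6), followed by CBFB (7.93), CBFA2T2 (7.48), RUNX2 (1.49) and RUNX3 (1.11). No neighbours in these orders overlapped over the 2 libraries of a group. Such orders depend on the exon lengths used. With DMSO, RUNX1 exceeded 81.9% of protein-coding genes at 1 CPM or more in DND-41 cells and 93.1% in MOLT-4 cells. RUNX3 exceeded 79.4% in DND-41 cells and 13.2% in MOLT-4 cells.

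**Figure D1:**
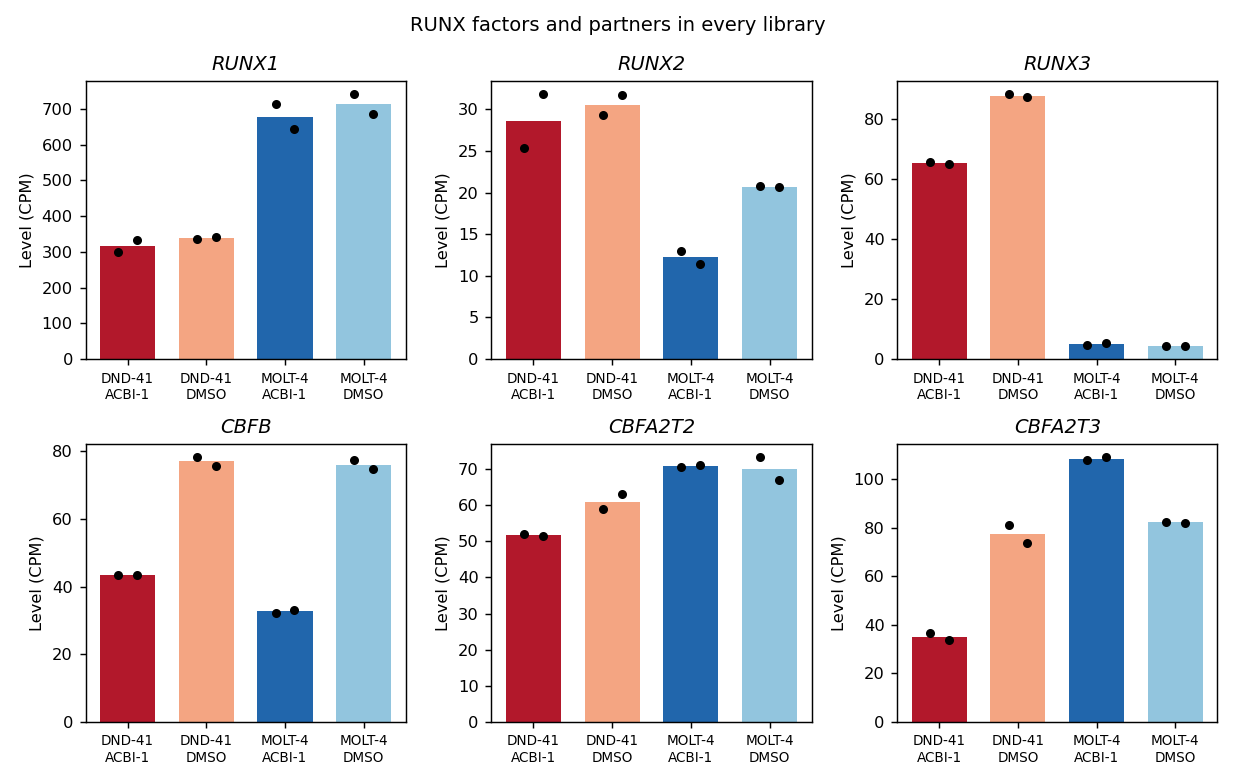
Levels of the 6 genes in CPM in every library, with points for libraries, grouped by line and treatment with ACBI-1 left of DMSO. The CBFB points of each line with ACBI-1 lie below those with DMSO, while CBFA2T3 lies lower with ACBI-1 in DND-41 cells and higher with ACBI-1 in MOLT-4 cells.

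With ACBI-1, DND-41 cells had less CBFB, CBFA2T3 and RUNX3 transcript, and slightly less CBFA2T2. CBFA2T3 fell 2.18-fold, CBFB 1.76-fold and RUNX3 1.33-fold. Of the 6 genes, 4 passed the test and all 4 were lower, where 43.2% of 14008 genes tested passed and 23.2% were lower. The median log2 fold change of the 6 genes was -0.320, against 0.010 over all genes tested.

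Among the DNA-binding factors in DND-41, RUNX3 had 65.6 and 64.9 CPM with ACBI-1, against 88.3 and 87.5 CPM with DMSO. Both treated libraries lay below both DMSO libraries (-0.41 ± 0.0609, adjusted p = 6.86e-05). RUNX1 had 300.4 and 333 CPM with ACBI-1, against 337 and 342 CPM with DMSO. The treated libraries were the lower pair, but they differed from each other by more than the second one differed from DMSO, and the change of -0.09 ± 0.0631 did not pass (adjusted p = 0.3). RUNX2 had 25.4 and 31.8 CPM with ACBI-1, against 29.3 and 31.7 CPM with DMSO, overlapping ranges with a change of -0.08 ± 0.0973 (adjusted p = 0.561). Without ACBI-1 replicate 2, the higher library of both genes, the changes passed, at -0.16 for RUNX1 (adjusted p = 0.00916) and -0.25 for RUNX2 (adjusted p = 0.0133).

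CBFB, the shared partner, had 43.4 and 43.3 CPM in the DND-41 ACBI-1 libraries, against 78.3 and 75.7 CPM in the DND-41 DMSO libraries. The treated pair was nearly identical and well below the DMSO pair (-0.81 ± 0.064, adjusted p = 1.25e-07). CBFA2T3 had 36.5 and 33.8 CPM with ACBI-1, against 81.0 and 73.9 CPM with DMSO. No treated library came near a DMSO library, and the fall of -1.13 ± 0.0726 (adjusted p = 1.64e-08) was exceeded by 5.46% of the genes tested in DND-41. CBFA2T2, its close relative, had 51.9 and 51.5 CPM with ACBI-1, against 58.9 and 63.2 CPM with DMSO. This difference was small (-0.23 ± 0.0659, adjusted p = 0.0126), and it no longer passed with DESeq2 (adjusted p = 0.0628) or without DMSO replicate 2 (-0.18, adjusted p = 0.223).

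In MOLT-4 cells ACBI-1 was again followed by a lower CBFB level, now 2.33-fold. RUNX2 was 1.7-fold lower, and CBFA2T3 was 1.31-fold higher. RUNX1, RUNX3 and CBFA2T2 did not pass the test. Thus 3 of the 6 genes passed, 1 higher and 2 lower, beside 45.1% of 14239 genes tested (20.7% higher and 24.4% lower). Of all called genes, 45.9% were higher, against 31.2% when counts were scaled by library size alone. The median log2 fold change was -0.034 for the 6 genes and 0.001 for all genes tested.

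RUNX2 had 13 and 11.5 CPM in the MOLT-4 ACBI-1 libraries, against 20.7 CPM in each MOLT-4 DMSO library. The treated libraries were both well below (-0.76 ± 0.0976, adjusted p = 2.57e-06), also without both replicate 2 libraries (-0.69, adjusted p = 0.00815). With those libraries left out, RUNX1 stood at -0.07 (adjusted p = 0.665) and RUNX3 at 0.17 (adjusted p = 0.65). With all libraries, RUNX1 had 713 and 644 CPM with ACBI-1 and 741 and 686 CPM with DMSO, ranges that overlapped (-0.08 ± 0.0683, adjusted p = 0.386). RUNX3 had 91 and 95 counts with ACBI-1 (4.82 and 5.23 CPM) and 81 and 86 counts with DMSO (4.25 and 4.27 CPM). The treated libraries were the higher pair, with a change of 0.23 ± 0.166 that did not pass (adjusted p = 0.275).

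CBFB had 32.3 and 33.2 CPM in the MOLT-4 ACBI-1 libraries, against 77.3 and 74.7 CPM in the MOLT-4 DMSO libraries. The groups were far apart (-1.22 ± 0.0674, adjusted p = 1.79e-11), and the fall was as large without both replicate 2 libraries (-1.27, adjusted p = 3.97e-07). Among the ETO-family genes, CBFA2T3 had 108 and 109 CPM with ACBI-1, against 82.5 and 82.1 CPM with DMSO. Each pair agreed closely, and the rise was 0.40 ± 0.0532 (adjusted p = 5.07e-06), or 0.37 without both replicate 2 libraries (adjusted p = 0.0128). CBFA2T2 had 70.5 and 71.0 CPM with ACBI-1, both within the 73.4 and 67.0 CPM seen with DMSO (0.0084 ± 0.0624, adjusted p = 0.928), and its sign turned with library size alone (-0.07) and without both replicate 2 libraries (-0.07, adjusted p = 0.661).

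**Figure D2:**
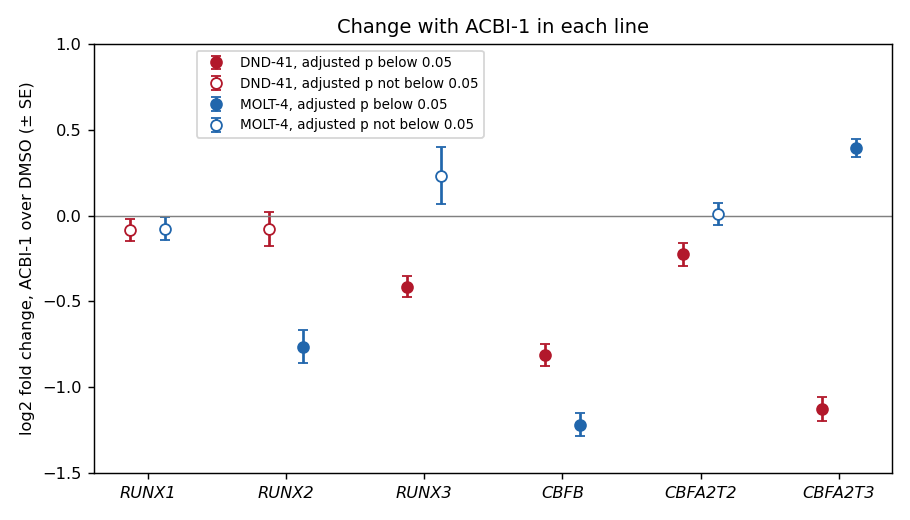
Log2 fold changes of the 6 genes, ACBI-1 over DMSO, with their SE, for DND-41 and MOLT-4. CBFB lies below 0 in both lines (-0.81 and -1.22), whereas CBFA2T3 lies at -1.13 in DND-41 and 0.40 in MOLT-4.

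**Figure D3:**
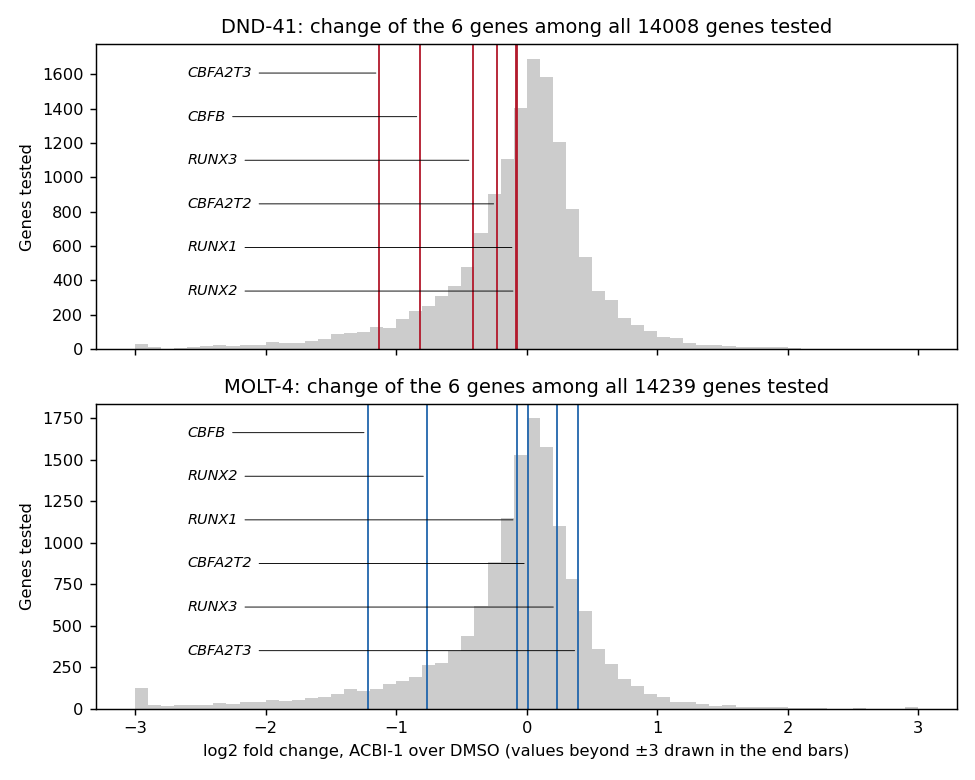
Distribution of log2 fold changes, ACBI-1 over DMSO, over all genes tested in each line (grey bars, number of genes per bin of 0.1, values beyond 3 drawn at the ends), with lines at the 6 genes. CBFB sits in the lower tail in both lines, and CBFA2T3 sits in the lower tail in DND-41 but in the upper part in MOLT-4.

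The response was then compared between lines as the DND-41 effect minus the MOLT-4 effect, in 1 fit of all 8 libraries. CBFA2T3 moved in opposite directions, with a difference of -1.54 ± 0.0896 (adjusted p = 1.58e-09). RUNX2 fell in MOLT-4 cells and did not pass in DND-41 cells, and its effects differed by 0.67 ± 0.149 (adjusted p = 0.00477). RUNX3 fell in DND-41 cells and did not pass in MOLT-4 cells, with a difference of -0.66 ± 0.142 (adjusted p = 0.00327). CBFB fell in both lines, and less in DND-41, by 0.39 ± 0.0854 (adjusted p = 0.0044). RUNX1 (-0.03 ± 0.0959, adjusted p = 0.927) and CBFA2T2 (-0.25 ± 0.0893, adjusted p = 0.0725) did not pass. Thus 4 of 6 genes passed, 2 with the higher and 2 with the lower value in DND-41, beside 13.3% of 15498 genes tested (6.17% higher and 7.18% lower). Of all called genes, 46.2% had the higher value in DND-41, against 73.9% with library size alone, which moved the median of all genes to 0.118. When both MOLT-4 replicate 2 libraries were left out, the differences for RUNX2 (0.61, adjusted p = 0.0915) and RUNX3 (-0.59, adjusted p = 0.119) no longer passed, while those for CBFB (0.45, adjusted p = 0.0316) and CBFA2T3 (-1.50, adjusted p = 1.01e-05) did.

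Ratios per kilobase show how the balance within the family shifted. RUNX1 made up 53.1% of the summed RUNX level in DND-41 cells with ACBI-1 and 48.5% in DND-41 cells with DMSO, and RUNX3 made up 37.8% with ACBI-1 and 43.2% with DMSO. With the longest transcript as gene length in place of all exons, RUNX1 made up 68.6% with ACBI-1 and 64.7% with DMSO, and RUNX3 made up 23.8% with ACBI-1 and 28.1% with DMSO. In MOLT-4 cells RUNX1 made up 94.4% with ACBI-1 and 93.0% with DMSO. CBFB per kilobase, relative to the summed RUNX level, was 0.285 and 0.265 in the DND-41 ACBI-1 libraries, against 0.424 and 0.406 in the DND-41 DMSO libraries. In MOLT-4 it was 0.161 and 0.183 with ACBI-1, against 0.367 and 0.380 with DMSO. In neither line did the treated libraries reach the ratio of a DMSO library. These transcript ratios rest on the gene length too: with the longest transcript, the mean ratio was 0.218 with ACBI-1 and 0.341 with DMSO in DND-41, and 0.109 with ACBI-1 and 0.236 with DMSO in MOLT-4. CBFA2T3 made up 51.8% of the summed CBFA2T2 and CBFA2T3 level in DND-41 cells with ACBI-1 and 66.7% with DMSO, but 70.8% in MOLT-4 cells with ACBI-1 and 65.0% with DMSO.

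**Figure D4:**
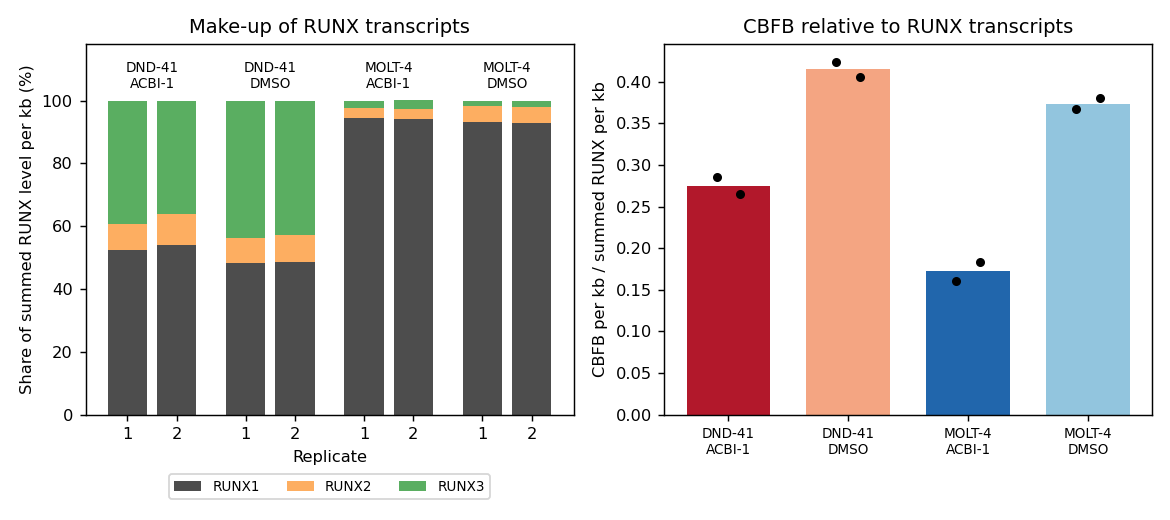
Left, share of RUNX1, RUNX2 and RUNX3 in their summed level per kb (percent) in each library. Right, CBFB level per kb over the summed RUNX level per kb, with bars for the mean and points for the 2 libraries of a group. RUNX3 holds a visible share in DND-41 libraries, and the CBFB ratio is lower with ACBI-1 in both lines (mean 0.275 against 0.415 in DND-41, and 0.172 against 0.374 in MOLT-4).

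Some other genes ran closely beside the members over the 8 libraries, measured by the root mean square difference of log2 CPM after centring each gene. The nearest to CBFB were PDXK (0.061), LZTFL1 (0.0638) and AIM1 (0.0693), each lower with ACBI-1 in both lines. PDXK, for example, averaged 24.1 CPM in DND-41 cells with ACBI-1 and 40.4 CPM with DMSO, and 17.3 CPM in MOLT-4 cells with ACBI-1 and 41.0 CPM with DMSO. The nearest to CBFA2T3 was TERT (0.127), the catalytic subunit of telomerase, at 4.72 CPM in DND-41 cells with ACBI-1 and 11.5 CPM with DMSO, and at 17.6 CPM in MOLT-4 cells with ACBI-1 and 11.7 CPM with DMSO. AGPAT4 (0.145) and MGAT4A (0.165) followed, but changed little in MOLT-4 cells. There AGPAT4 averaged 8.19 CPM with ACBI-1 and 7.73 CPM with DMSO, and MGAT4A 56.8 CPM with ACBI-1 and 56.2 CPM with DMSO. The nearest to RUNX1 were PABPC1 (0.05), CERS6 (0.0582) and CPD (0.0716), and to RUNX2 they were RASA2 (0.109), C20orf96 (0.119) and ERBB2IP (0.121). VRK2 (0.211), LRIF1 (0.247) and KHDC1 (0.272) came nearest to RUNX3, and PPM1K (0.0301), UBE2R2 (0.0393) and NUS1 (0.0419) to CBFA2T2. Pearson's r over the 8 libraries ran from 0.965 to 0.996 for these 18 genes. They were picked as the nearest, so a high r follows in part from the choice. They share the libraries and, for RUNX1, RUNX3 and their neighbours, mainly the difference between lines.

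Genes known to bind or modify RUNX proteins were read as a list of 26. In DND-41 cells, 6 of the 24 tested were higher and 8 lower with ACBI-1 (median -0.053, against 0.010 over all genes, of which 20.0% were higher and 23.2% lower). In MOLT-4 cells, 6 of the 23 tested were higher and 11 lower (median -0.116, against 0.001 over all genes, of which 20.7% were higher and 24.4% lower). ELF4, an ETS factor that can bind RUNX1, fell in each line, with 13.6 and 14 CPM with ACBI-1 against 44.0 and 44.5 CPM with DMSO in DND-41 (-1.67, adjusted p = 7.57e-10). In MOLT-4 it had 3.18 and 3.30 CPM with ACBI-1 against 41.4 and 37.7 CPM with DMSO (-3.61, adjusted p = 3.59e-15). ETS1, which binds DNA cooperatively with RUNX1, fell in DND-41 cells (-0.79) and rose in MOLT-4 cells (0.48), a difference between lines of -1.29. PIM1, a kinase that phosphorylates RUNX proteins, was lower in DND-41 cells (-0.90) and in MOLT-4 cells (-0.65). The Groucho corepressors TLE4 (-0.92) and TLE3 (-0.87) were lower in MOLT-4 cells and also in DND-41 cells (-0.42 for TLE4 and -0.53 for TLE3). The rises were smaller: TLE1 (0.46), the histone methyltransferase SUV39H1 (0.26) and the arginine methyltransferase PRMT1 (0.24) in DND-41, and SIN3A (0.50), a corepressor scaffold, and SUV39H1 (0.35) in MOLT-4, where TLE1 (0.27) and PRMT1 (0.16) also rose. SIN3A did not pass in DND-41 (-0.07, adjusted p = 0.433). In DND-41, SUV39H1 did not pass without DMSO replicate 1 (adjusted p = 0.091), nor PRMT1 without DMSO replicate 1 (adjusted p = 0.0516) or 2 (adjusted p = 0.156).

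A second list held 19 relatives of the ETO family and partners in TAL1 complexes. TAL1 itself had no counts in any DND-41 library. In MOLT-4 it averaged 41.5 CPM with ACBI-1 and 55.8 CPM with DMSO (-0.43, adjusted p = 2.78e-05). In DND-41 cells, 3 of 13 tested were higher and 5 lower (median -0.145, against 0.010 over all genes), and in MOLT-4 cells 5 of 14 were higher and 8 lower (median -0.174, against 0.001 over all genes). Over all genes, 43.2% passed in DND-41 and 45.1% in MOLT-4. The ETO gene itself, RUNX1T1, had at most 6 counts in a library and was not tested. The largest fall of this list in MOLT-4 was that of LMO2 (-2.19, adjusted p = 8.51e-08). LMO2 had 1.48 and 1.16 CPM with ACBI-1 against 6.09 and 6.01 CPM with DMSO, and no counts in any DND-41 library. GFI1, a repressor active in lymphoid progenitors, fell by 1.49 in DND-41 and by 1.06 in MOLT-4 on the log2 scale. SSBP2, which stabilises LDB1 complexes, fell by 1.25 in DND-41 and by 1.30 in MOLT-4, and GATA3, a regulator of T-cell identity, fell by 0.59 in DND-41 and by 0.90 in MOLT-4. TCF12, an E-protein bound by ETO-family corepressors, rose in both lines (0.63 in DND-41 and 0.34 in MOLT-4), as did IRF2BP2 (0.35 in DND-41 and 0.33 in MOLT-4, though 0.26 with an adjusted p of 0.0737 in MOLT-4 after leaving out both replicate 2 libraries). ZBTB33 rose too, by 0.33 in DND-41 and by 0.32 in MOLT-4. The E-protein TCF3 went the other way from TCF12, with -0.45 in DND-41 and -0.19 in MOLT-4. TCF4, also an E-protein, did not pass in DND-41 (adjusted p = 0.0508) or in MOLT-4 (adjusted p = 0.237). MYB, a proto-oncogene of T-ALL, had 1110 and 1100 CPM in the MOLT-4 ACBI-1 libraries, against 732 and 702 CPM in the MOLT-4 DMSO libraries, a rise of 0.62; in DND-41 its change did not pass (-0.15, adjusted p = 0.0738).

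The third list held 30 genes of blood and T cells known from other work to be bound by RUNX factors. In DND-41 cells, 12 of 19 tested were lower and 3 higher (median -0.518, against 0.010 over all genes, of which 23.2% were lower and 20.0% higher). In MOLT-4 cells, 13 of 18 were lower and 3 higher (median -0.777, against 0.001 over all genes, of which 24.4% were lower and 20.7% higher). ITGAL, the alpha chain of the integrin LFA-1, had 2.92 and 3.15 CPM with ACBI-1 against 13.9 and 13.3 CPM with DMSO in DND-41, and 24.1 and 28.6 CPM with ACBI-1 against 169 and 170 CPM with DMSO in MOLT-4. It was lower in both lines (-2.15 in DND-41 and -2.69 in MOLT-4), with no overlap between treatments. PRF1, which encodes perforin, fell by 2.91 in DND-41 and was not tested in MOLT-4. TCF7, a T-cell factor of the Wnt pathway, fell by 1.21 in DND-41 and by 0.49 in MOLT-4. CD8A, a T-cell coreceptor, fell by 1.63 in MOLT-4 and did not pass in DND-41 (-0.52, adjusted p = 0.217). EOMES, a T-box factor, fell by 1.14 in MOLT-4 and by 1.17 in DND-41. IL2RB, an interleukin receptor chain, had no counts in either MOLT-4 ACBI-1 library and averaged 1.38 CPM with DMSO, at least 8.51-fold lower with ACBI-1 at a floor of 3 counts per library. With IL2RB at that bound the MOLT-4 median stayed at -0.777, which was fixed in advance because IL2RB lies below the median either way. In DND-41, IL2RB averaged 0.657 CPM with ACBI-1 and 7.35 CPM with DMSO, a change of -3.46 (adjusted p = 2.39e-08).

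Against this direction, ITGAE, an integrin chain whose gene is a known target of RUNX3 in mouse T cells, had 79.0 and 87.0 CPM with ACBI-1 and 29.6 and 30.1 CPM with DMSO in DND-41 cells, a rise of 1.49. MOLT-4 cells had 28.2 and 30.1 CPM with ACBI-1 and 35.2 and 38.6 CPM with DMSO, a fall of -0.34 ± 0.0761 (adjusted p = 0.00103), and the effects differed between lines by 1.82. RAG1, a recombinase gene, rose by 0.53 in DND-41 and did not pass in MOLT-4 (0.03, adjusted p = 0.868). IL7R rose by 0.18 in DND-41, though IL7R did not pass without DMSO replicate 1 (adjusted p = 0.246) or 2 (adjusted p = 0.242). In MOLT-4 MYB, counted in this list too, CD4 (0.38) and CCND3 (0.32), a cyclin, rose. CCND3 fell in DND-41 (-0.31, adjusted p = 0.00079). CD4 did not pass with DESeq2 (adjusted p = 0.111), when scaled by library size only (adjusted p = 0.0565), without MOLT-4 ACBI-1 replicate 2 (0.26, adjusted p = 0.141) or without both replicate 2 libraries (0.24, adjusted p = 0.419). After leaving out both MOLT-4 replicate 2 libraries, 3 co-regulators were higher and 10 lower of 24 tested, 3 TAL1-complex and ETO-family genes were higher and 6 lower of 15, and 2 RUNX-bound genes were higher and 11 lower of 20. In that fit 22.5% of 15965 genes passed, 1357 higher and 2232 lower.

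**Figure D5:**
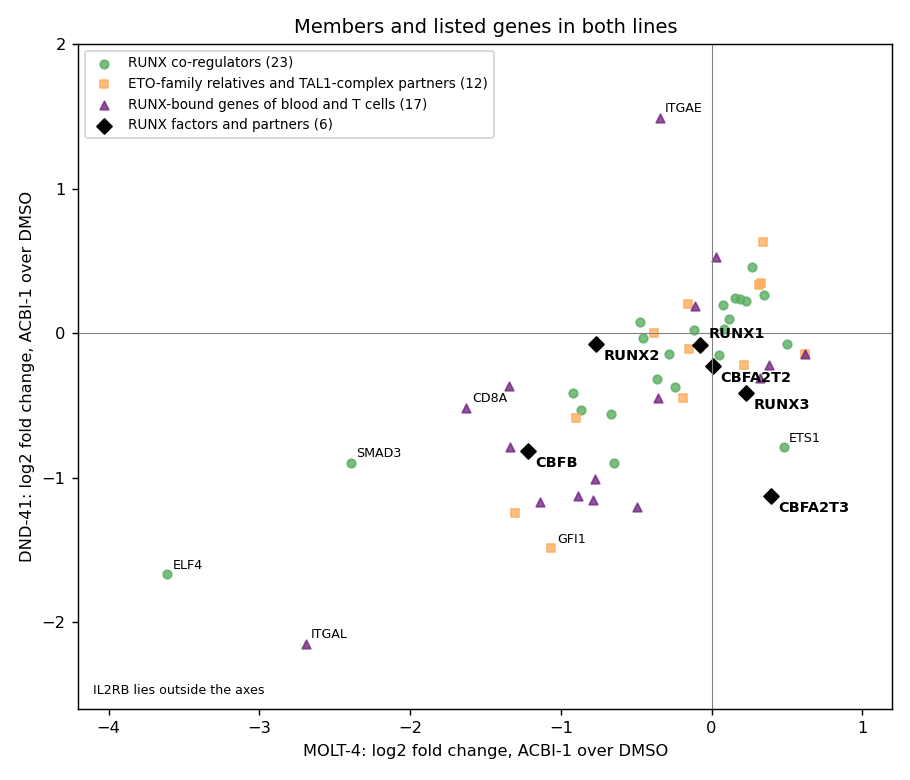
Log2 fold changes, ACBI-1 over DMSO, in MOLT-4 (x) and DND-41 (y) for genes tested in both lines, with diamonds for the 6 RUNX factors and partners and other symbols for the 3 lists. Most RUNX-bound genes lie below and left of 0, ITGAE, ETS1 and CBFA2T3 are among the genes in the quadrants of opposite direction, and IL2RB, with no counts in MOLT-4 cells with ACBI-1, is outside the axes.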

How the data were processed

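RNA-seq libraries were strand-specific and read as paired ends of 100 bp, per the labels. The gene counts are whole, unnormalised numbers deposited by the authors. STAR 2.5.2a, featureCounts, DESeq2 1.12.4 and the hg19 build are named in the submitters' processing notes, without order or role. For the annotation and strand setting, the sources used here state nothing. Further tables from the authors list log2 fold changes, their standard errors, p-values and adjusted p-values, and score columns, per the file headers (a mean of normalised counts and a test statistic). These tables gave the gene symbols. The signs of the deposited log2 fold changes matched those computed here for 6056 of 6056 called genes in DND-41 and 0 of 6425 in MOLT-4, so the deposited MOLT-4 values run as DMSO over ACBI-1. For CBFB, the authors' deposited table gives 1.21 in MOLT-4 and -0.82 in DND-41. All results come from the counts.

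Groups were taken from the labels. Counts were scaled by TMM and tested with edgeR 4.0.16 in R 4.3.3 (filterByExpr, minimum count 10, quasi-likelihood F test, Benjamini-Hochberg, threshold 0.05). Each line was fitted alone with treatment as the only term, and the difference between lines and between DMSO groups came from 1 fit of all 8 libraries. The SE is the absolute log2 fold change over the square root of F. CPM uses effective library sizes. CPM per kb uses the union of exons in GENCODE release 29, matched by gene identifier. That annotation and the RefSeq promoters are on GRCh38, not hg19, and no hg19 coordinate is given. Tests were checked on counts simulated with edgeR's own fitted spread and far fewer changed genes than passed here. That check does not cover changes this widespread. Log2 CPM of replicates correlated at Pearson's r of 0.9949 to 0.9974, and no library pair was identical. Alternatives were DESeq2 1.42.0, other scalings, filters and a threshold of 0.01, a replicate block, and leaving out libraries. The longest transcript as gene length, and the fits without both MOLT-4 replicate 2 libraries, were added after seeing the data.

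The members and the 3 lists were chosen with earlier results of these data known. Named were all 6 members. From each list and line, up to 3 rises and 3 falls by log2 fold change were named among called genes averaging at least 5 CPM, and for each member the 3 most similar genes averaging at least 5 CPM. RUNX1T1, TAL1, LMO2, TCF3, TCF4, IL2RB and the library markers were named outside that rule, after their values were seen.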

Additional observations from a re-analysis of the deposited data

Results flagged for a closer look

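The effect of ACBI-1 differed between the lines for 4 of the 6 genes, by the interaction test over all 8 libraries. The differences, DND-41 effect minus MOLT-4 effect on the log2 scale, were 0.67 for RUNX2, -0.66 for RUNX3, 0.39 for CBFB and -1.54 for CBFA2T3. Only CBFA2T3 among these passed the test in both lines with opposite signs.

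The same test passed for 13.3% of 15498 genes. Of the whole lists, 5 co-regulators had the higher value in DND-41 and 2 the lower, of 24 tested. For TAL1-complex and ETO-family genes it was 1 higher and 4 lower of 15, and for RUNX-bound genes 5 higher and 4 lower of 20. Among the listed genes named above for the size of their change in a line, the test passed for 13. That choice favours genes that differ between lines. The DND-41 effect was the higher one for ELF4 (1.92), ITGAE (1.82), CD8A (1.09), ITGAL (0.53), TLE4 (0.49), TLE3 (0.31) and TCF12 (0.27). It was the lower one for ETS1 (-1.29), MYB (-0.78), TCF7 (-0.73), CCND3 (-0.65), SIN3A (-0.59) and GFI1 (-0.44). TCF3, named outside that choice, also passed (-0.28, adjusted p = 0.0311). IL2RB, named outside it too, passed at 4.32 (adjusted p = 0.0491), a size set by the fit, with no counts in MOLT-4 cells with ACBI-1. At the floor of 3 counts, its MOLT-4 change was -3.09 or lower, against -3.46 in DND-41. That bound does not fix in which line IL2RB fell more. The alternatives counted next include the threshold of 0.01, which reuses the main fit and so passes at 0.05 by construction. At 0.01 itself, TCF12, ITGAL, TLE3 and CD8A did not pass. Under the 16 alternatives run, ELF4, ITGAE, ETS1, MYB, TCF7 and CCND3 passed at 0.05 in each. GFI1 and SIN3A passed in 15, TLE4 in 12, TLE3 in 11, TCF12 in 10, ITGAL in 9 and CD8A in 8. GFI1 did not pass with library size alone (-0.32, adjusted p = 0.0815), nor SIN3A without both MOLT-4 replicate 2 libraries (-0.42, adjusted p = 0.0767). Over the fits leaving out 1 library, the largest adjusted p was 0.25 for CD8A, 0.2 for TCF12, 0.188 for ITGAL, 0.121 for TLE3 and 0.0829 for TLE4. CD8A had at most 1.5 CPM in every DND-41 library.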

How the results depend on the processing

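In every alternative run, the calls and directions held for RUNX3, CBFB and CBFA2T3 in DND-41, for RUNX2, CBFB and CBFA2T3 in MOLT-4, for RUNX1, RUNX2 and RUNX3 between DMSO groups, and for CBFB and CBFA2T3 in the difference between lines. CBFA2T2 in DND-41 lost its call with DESeq2 (-0.23, adjusted p = 0.0628), at a threshold of 0.01 (-0.23) and without DMSO replicate 2 (-0.18). It kept its call without DMSO replicate 1 (-0.28), and ran from -0.28 to -0.18 over fits leaving out 1 library. Over such fits RUNX1 in DND-41 gave -0.16 to -0.0157, and RUNX2 gave -0.25 to 0.0710, turning sign without ACBI-1 replicate 1. Where the value was near 0 its sign was not stable. CBFA2T2 in MOLT-4 was -0.0705 with library size alone, -0.0013 with a stricter filter and -0.0704 without both replicate 2 libraries, and -0.0505 to 0.0805 leaving out 1 library. RUNX1 in MOLT-4 ran from -0.15 to 0.0016. The difference between lines for RUNX1 was 0.0959 with library size alone and ran from -0.11 to 0.0498 leaving out 1 library; for CBFA2T2 it ran from -0.32 to -0.17, passing without MOLT-4 DMSO replicate 1 (adjusted p = 0.0389). Between DMSO groups, CBFA2T3 was 0.0170 and CBFA2T2 -0.0965 with library size alone, CBFA2T2 ran from -0.28 to -0.13 and CBFB from -0.0189 to 0.0459 leaving out 1 library, and CBFB was -0.0200 without both MOLT-4 replicate 2 libraries. The cause was not tested. Of all genes, 2068 differed in effect between lines, 1178 at a threshold of 0.01, 944 without both MOLT-4 replicate 2 libraries and 1367 to 2196 leaving out 1 library. In MOLT-4, 6425 genes passed, and 3589 passed without both replicate 2 libraries. There the lone MOLT-4 libraries are assumed to vary like the others, and RUNX2 (0.61) and RUNX3 (-0.59) lost their difference between lines. With the replicate number as a block, the difference for CBFA2T2 passed (-0.25, adjusted p = 0.0458) and no other member's call changed; 6876 genes passed in DND-41, 6920 in MOLT-4 and 2579 in the difference. Same-numbered libraries of 1 line deviated together weakly (r = 0.161 in DND-41 and 0.316 in MOLT-4), with 2 pairs per line, and the labels do not say what a number marks.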
